A study of Mus musculus with 16 samples.

Results

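The genes described here carry, convert and sense retinoic acid: Rdh10, Dhrs3 and Cyp26a1 act on the hormone or its precursors, Crabp1 and Crabp2 bind it inside the cell, and Rara, Rarb, Rarg and Rxra encode nuclear receptors of the pathway. They were taken by symbol from the deposited table of gene counts and make up 9 of its 37991 genes; 8 of them were among the 14612 genes with enough reads to test, and Cyp26a1 was not. The table gives the RNA sequencing counts of mouse heart samples taken at E10.5. Each of 4 genotypes had 4 libraries. Hearts without an altered allele are called wild type (WT), those with 1 altered allele are Tbx5 del/+ or Tbx5 CreERT2/+, and those of genotype Tbx5 del/CreERT2 carry both altered alleles. Tbx5 is a T-box transcription factor of the heart. The labels name no tamoxifen or other treatment, do not say what the CreERT2 or del allele leaves of the gene, and do not say whether libraries came from single embryos, pools or separate litters, so that p-values measure the spread between these libraries only.

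Retinoic acid is made from retinol, which Rdh10 oxidises to retinaldehyde and Dhrs3 reduces back to retinol, and Aldh1a enzymes turn retinaldehyde into the acid. Inside the cell it is carried by Crabp proteins and broken down by Cyp26 enzymes, or it binds a heterodimer of a retinoic acid receptor (RAR) with a retinoid X receptor (RXR) that sits on DNA near target genes. In the early heart this signal is known for its part in setting the posterior, venous end of the heart tube, and the epicardium is a source of it.

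Rarb and Cyp26a1 are textbook targets of the receptors, and their promoter windows are shown because each holds the receptors' own kind of site. The windows, from RefSeq on build GRCm38.p6, run from 250 bases before to 50 bases after the annotated start, 5′ to 3′ on the gene's strand; capitals mark the match to the DR5 element, a spaced direct repeat that RAR and RXR bind. The Rarb window is chr14:16575427-16575726 on the minus strand, and the Cyp26a1 window is chr19:37697558-37697857 on the plus strand.
Rarb: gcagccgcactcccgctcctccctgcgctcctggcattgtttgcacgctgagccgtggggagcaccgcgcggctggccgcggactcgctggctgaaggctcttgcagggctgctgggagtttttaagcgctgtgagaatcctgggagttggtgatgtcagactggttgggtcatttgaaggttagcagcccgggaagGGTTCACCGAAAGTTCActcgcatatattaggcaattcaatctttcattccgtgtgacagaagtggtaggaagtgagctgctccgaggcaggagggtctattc
Cyp26a1: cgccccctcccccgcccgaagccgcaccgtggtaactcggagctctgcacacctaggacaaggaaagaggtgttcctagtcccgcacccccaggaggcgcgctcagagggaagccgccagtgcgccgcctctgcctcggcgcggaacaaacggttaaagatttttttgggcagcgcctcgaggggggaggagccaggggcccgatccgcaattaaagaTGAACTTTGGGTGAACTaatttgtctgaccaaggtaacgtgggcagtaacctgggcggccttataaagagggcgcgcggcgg
The Rarb match lies at -53 to -37 from the start on the printed strand, and the Cyp26a1 match lies at -32 to -16 and reads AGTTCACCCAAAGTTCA on the other strand. With both strands searched, DR5 was found in 0.323% of 32851 RefSeq promoter windows and in no other window of the 7 members that had one (Dhrs3, Crabp1, Rara, Rarb, Rarg, Rxra and Cyp26a1). The T-box core AGGTGT, also searched on both strands, was present in 1 of 2 windows each of Rarg and Rxra and in the Cyp26a1 window, overlapped no DR5 match, and occurred in 13.7% of all windows. No windows were read for Rdh10 and Crabp2. These are matches of letters, and no binding was measured.

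The libraries held 21436305 to 42731841 counts, of which 42.3% to 78.3% fell on the mitochondrial ribosomal RNAs. The lowest shares, 42.3% to 60.6%, belonged to 3 libraries, CreERT2/+ 3, del/CreERT2 3 and WT 4. The next lowest share was 62.3% in del/CreERT2 4, so by share WT 4 was close to the rest. On the first principal component, the main axis of difference between libraries, these 3 lay at 26.2 to 63.8 and the others at -25.4 to 1.98. Levels are given as CPM, which divides each count by its library's TMM-adjusted total, and the 9 members together had 635 to 1639 counts in a library. The targeted gene, Tbx5, had a mean of 19.7 ± 5.24 CPM in WT hearts (SD, n = 4 here and for each genotype). It was at 31.2 ± 7.18 CPM with the del allele alone, at 24.5 ± 9.91 CPM with the CreERT2 allele alone and at 22.4 ± 1.79 CPM with both, and each overlapped WT. A count over the whole gene does not tell the altered alleles from the normal one. All 7 cardiomyocyte markers measured were present in every library, with Ttn and Actc1 the most abundant. Since bulk tissue was sequenced, fewer cells of a type and less RNA per cell cannot be told apart in any value below.

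None of the 8 tested members differed between genotypes past an adjusted p of 0.05 in edgeR's quasi-likelihood test with Benjamini-Hochberg adjustment over all tested genes. In del/CreERT2 against WT hearts this was 0 of 8 members, beside 49 of all tested genes (0.335%), 27 higher and 22 lower. It was 0 of 8 in del/+ against WT (0.116% of all tested genes called), in CreERT2/+ against WT (0.0342%), in del/CreERT2 against del/+ (0.0205%) and in del/CreERT2 against CreERT2/+ (0.0753%). It was also 0 of 8 in CreERT2/+ against del/+, where no gene was called by edgeR although 611 had an unadjusted p under 0.05 (DESeq2 and limma-voom also called 0), and in the interaction (0.0411%), which asks whether both alleles together differ from the sum of each alone. Over the 7 comparisons, 1 member value had an unadjusted p under 0.05, Crabp1 in del/+ against WT. Among all tested genes, the share with an unadjusted p under 0.05 was 5.67% in del/CreERT2, 5.81% in del/+ and 3.71% in CreERT2/+ against WT. It was 5.08% in del/CreERT2 against del/+, 3.97% against CreERT2/+, 4.18% in CreERT2/+ against del/+ and 4.34% in the interaction. DESeq2 and limma-voom, fitted to the same libraries, also called 0 members in each comparison. No member had its 4 libraries of one genotype wholly above or below those of another. Among all tested genes, that held for 4.28% in del/CreERT2 against WT (2.31% higher, 1.96% lower), 4.06% in del/+ against WT (2.18% and 1.88%) and 1.66% in CreERT2/+ against WT (1.05% and 0.602%). It held for 4.19% in del/CreERT2 against del/+ (2.47% and 1.72%), 2.48% in del/CreERT2 against CreERT2/+ (1.24% and 1.25%) and 2.32% in CreERT2/+ against del/+ (1.44% and 0.883%). Between del/CreERT2 and WT the median log2 fold change was 0.07 over the members and -0.0032 over all tested genes. The comparisons with WT share the WT libraries.

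**Figure D1:**
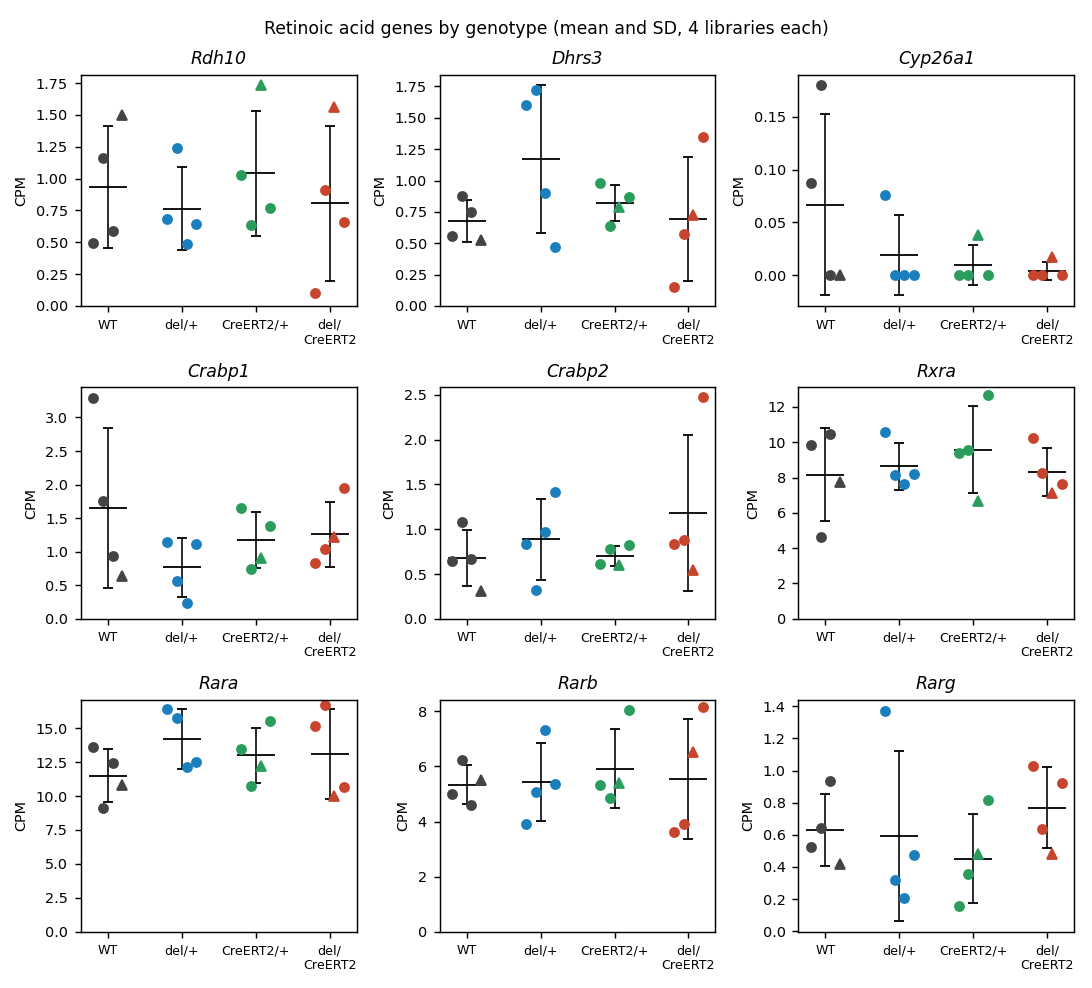
Level of each member in each of the 16 libraries, in CPM, by genotype; points are libraries, bars the mean and SD of 4, and triangles the 3 libraries lowest in mitochondrial ribosomal RNA. The genotypes overlap in all 9 panels, and the triangles are the highest points of their genotypes for Rdh10.

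The precision of these comparisons differed between the members. For Rara, Rarb and Rxra, with 6458, 2921 and 4301 counts in all, the 95% interval of the log2 fold change stayed within 1 in either direction in all 6 comparisons between genotypes, with outermost bounds of 0.74, 0.70 and 0.74. Differences of more than 1.68-fold for Rara, 1.62-fold for Rarb and 1.67-fold for Rxra between any pair of genotypes thus lay outside these intervals. For Rdh10, Dhrs3, Crabp1, Crabp2 and Rarg, with 312 to 637 counts in all, no interval stayed within 1, and the outermost bounds reached 1.63, 1.82, -2.17, 1.85 and 1.94. These bounds correspond to 3.10-fold to 4.51-fold, and differences smaller than these were not resolved from the spread between these libraries. The same 5 genes varied more between libraries, as given below, and the parts of depth and of spread in these widths were not tested.

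**Figure D2:**
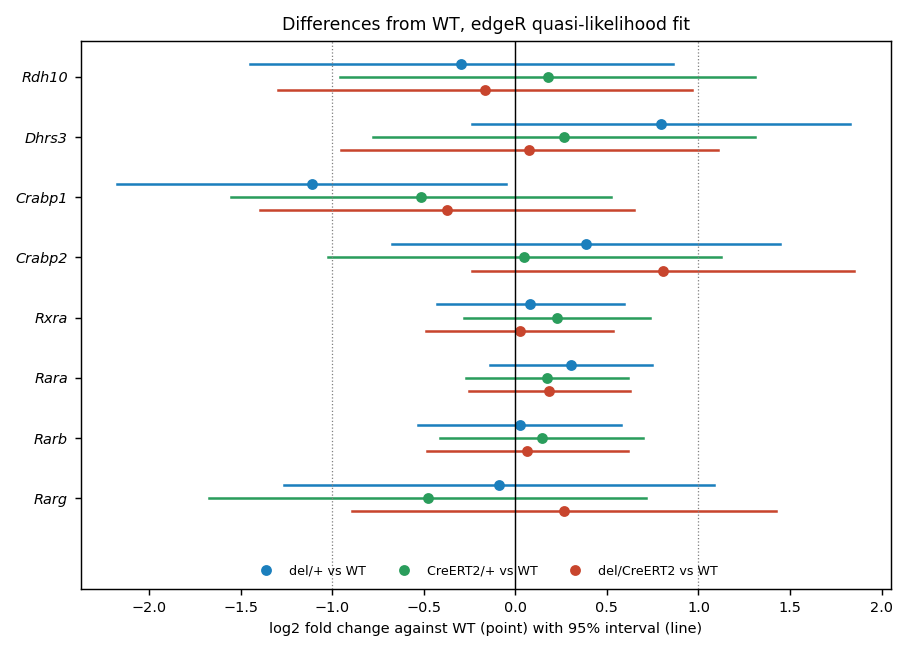
Log2 fold change of the 8 tested members in del/+, CreERT2/+ and del/CreERT2 against WT hearts (points) with the 95% interval (lines) from edgeR; dotted lines mark a change of 1 on the log2 scale. Rara, Rarb and Rxra have the narrow intervals, and the Crabp1 interval in del/+ hearts, -2.17 to -0.05, is the one that does not reach 0.

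Per length of transcript, 3 of the 4 receptors led the group, and Rarg was next to last. Over the 16 libraries Rara was highest at 2.83 CPM per kb, followed by Rarb at 1.69, Rxra at 1.59, Crabp1 at 1.51, Crabp2 at 0.653, Dhrs3 at 0.287, Rdh10 at 0.213, Rarg at 0.149 and Cyp26a1 at 0.0141. Rara lay above 69.4% of all tested genes on this scale and Rarg above 9.10%. Rarb, Rxra and Crabp1 were close to one another, and their libraries overlapped.

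**Figure D3:**
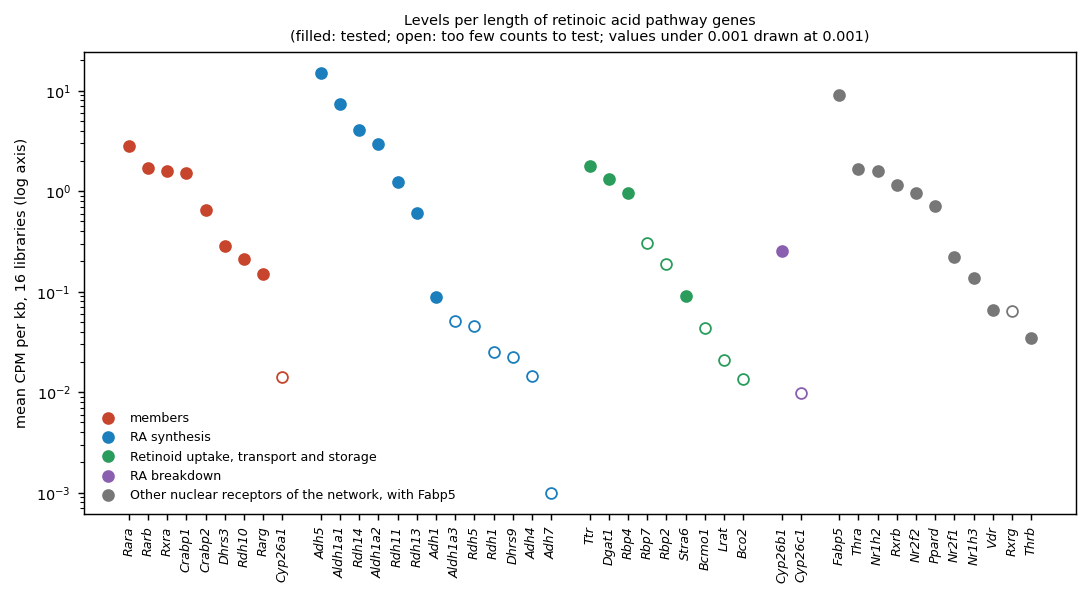
Mean level per length (CPM per kb, log axis) of the members and of other retinoic acid pathway genes over the 16 libraries; filled points were tested, open points had too few counts. Rara is the highest member and Cyp26a1 the lowest, and Aldh1a1 and Aldh1a2 lie above all 9 members.

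Among the enzymes, Rdh10 (ENSMUSG00000025921, chromosome 1, 16095855 to 16123815 in build mm9) makes the retinaldehyde from which retinoic acid is formed. It was at 0.496, 1.16, 0.588 and 1.50 CPM in the WT libraries 1 to 4 and at 0.686, 1.24, 0.486 and 0.645 CPM in the del/+ libraries. It was at 1.03, 0.638, 1.73 and 0.768 CPM in the CreERT2/+ libraries and at 0.0981, 0.909, 1.56 and 0.658 CPM in the del/CreERT2 libraries. The genotypes overlapped throughout, and the libraries highest in WT, CreERT2/+ and del/CreERT2 hearts were WT 4, CreERT2/+ 3 and del/CreERT2 3. The log2 fold change in del/CreERT2 against WT was -0.17 ± 0.55 (SE; adjusted p = 1.00 by edgeR). The 3 libraries low in mitochondrial ribosomal RNA held 1.50 to 1.73 CPM of Rdh10, above the 0.0981 to 1.24 CPM of the other 13; 8.76% of all tested genes were placed in that way and 6.17% in the opposite way. Its most similar genes across the 16 libraries were Myst4 (r = 0.89) and Phf17 (r = 0.89), which were 0.82 and 0.78 over the 13 libraries without those 3. The part that this share has in the values of Rdh10 was not tested beyond these numbers.

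Dhrs3 (ENSMUSG00000066026, chromosome 4, 144482730 to 144518112), the retinaldehyde reductase, was at 0.554, 0.875, 0.748 and 0.526 CPM in the WT libraries and at 1.60, 1.72, 0.903 and 0.473 CPM in the del/+ libraries. It was at 0.976, 0.638, 0.790 and 0.871 CPM in the CreERT2/+ libraries and at 0.147, 0.572, 0.722 and 1.34 CPM in the del/CreERT2 libraries. The libraries del/+ 1 and del/+ 2 were the highest of all 16, while del/+ 4 was below every WT library. The log2 fold change was 0.79 ± 0.50 in del/+ against WT (95% interval -0.24 to 1.82, adjusted p = 0.916 by edgeR) and 0.08 ± 0.50 in del/CreERT2 against WT. In del/CreERT2 hearts both Dhrs3 and Rdh10 were lowest in library 1, with 3 and 2 counts.

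Cyp26a1 (ENSMUSG00000024987, chromosome 19, 37772298 to 37776018), which breaks retinoic acid down, had 15 counts in the whole series and none in 11 of 16 libraries. The WT libraries 1 and 2 held 3 and 7 of them, which is 0.0875 and 0.180 CPM, and del/+ 1, CreERT2/+ 3 and del/CreERT2 3 held 2, 2 and 1. The other 11 libraries were at 0, and a count of 0 there allows a level of up to 0.0789 CPM (WT 4) to 0.154 CPM (CreERT2/+ 1), which stands for 3 counts and covers counting error only. All 4 genotypes included libraries at 0, and no fold change is given. An exact two-sided permutation test on log2(CPM + 1) gave p = 0.429 in del/CreERT2 against WT. Most of these libraries were tied at 0, so the test could not reach the 0.0286 that 4 against 4 untied libraries allow. For that reason it cannot decide whether Cyp26a1 differed between these genotypes. Cyp26b1, the related enzyme, was more abundant, at 1.14 ± 0.294 CPM in WT and 1.16 ± 0.491 CPM in del/CreERT2 hearts (SD, n = 4), and Cyp26c1 had 9 counts in all.

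Of the binding proteins, Crabp1 (ENSMUSG00000032291, chromosome 9, 54612555 to 54620917) is a small cytoplasmic carrier of retinoic acid. It was at 3.29, 1.75, 0.935 and 0.631 CPM in the WT libraries and at 1.14, 0.560, 0.243 and 1.12 CPM in the del/+ libraries. It was at 1.64, 0.744, 0.906 and 1.38 CPM in the CreERT2/+ libraries and at 0.833, 1.04, 1.22 and 1.95 CPM in the del/CreERT2 libraries. WT 1 was the highest of the 16 and del/+ 3, with 7 counts, the lowest; WT 4 lay below del/+ 1 and del/+ 4. In del/+ against WT the log2 fold change was -1.11 ± 0.51 (95% interval -2.17 to -0.05), with an unadjusted p of 0.0410 and an adjusted p of 0.840 by edgeR; 5.81% of all tested genes had an unadjusted p under 0.05 in this comparison. The exact two-sided permutation test over these 4 and 4 libraries gave p = 0.257, and without WT 1 the log2 fold change was -0.55 (adjusted p = 0.945). For this comparison the authors' deposited table holds a log2 fold change of -1.11, with the sign turned to del/+ over WT, at a p-value of 0.0390 and 0.983 after adjustment. Hearts with both alleles had a log2 fold change of -0.37 ± 0.49 against WT, and in the interaction it was 1.25 ± 0.72 (adjusted p = 0.996).

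The 7 measured markers of neural crest and neurons, of which Ngfr and Tubb3 were the most abundant, summed to 4.82 to 6.23 CPM in the del/CreERT2 libraries and to 2.13 to 4.60 CPM in the other 12. Of single tested genes, 2.31% lay wholly higher in del/CreERT2 than in WT libraries. Sox10, a defining marker of neural crest, was at 0 in 5 libraries and Foxd3 in 14. The part of these cells in the Crabp1 values was not tested.

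Crabp2 (ENSMUSG00000004885, chromosome 3, 87752588 to 87757298) carries retinoic acid to the receptors. It was at 0.641, 1.08, 0.668 and 0.316 CPM in the WT libraries and at 0.839, 0.320, 0.972 and 1.42 CPM in the del/+ libraries. It was at 0.617, 0.780, 0.598 and 0.820 CPM in the CreERT2/+ libraries and at 0.833, 0.875, 0.550 and 2.48 CPM in the del/CreERT2 libraries. The library del/CreERT2 4 was the highest of all 16, and the other 3 of its genotype lay within the WT range. The log2 fold change in del/CreERT2 against WT was 0.81 ± 0.50 (adjusted p = 1.00 by edgeR), and it was 0.13 without del/CreERT2 4. The libraries low in mitochondrial ribosomal RNA were each the lowest of their own genotype for Crabp2. Per length, Crabp1 made up 68.1% ± 13.6 of the pair and Crabp2 31.9% (SD, n = 16), and the Crabp2 share ran from 10.6% in its lowest library to 70.8% in its highest.

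Among the receptors, Rara (ENSMUSG00000037992, chromosome 11, 98789132 to 98836256) encodes the retinoic acid receptor alpha and had the most reads. It was at 13.6, 9.13, 12.5 and 10.8 CPM in the WT libraries and at 16.4, 15.8, 12.2 and 12.5 CPM in the del/+ libraries. It was at 13.5, 10.8, 12.2 and 15.6 CPM in the CreERT2/+ libraries and at 15.1, 16.7, 9.97 and 10.6 CPM in the del/CreERT2 libraries. Of the del/CreERT2 libraries, 1 and 2 lay above the WT range and 3 and 4 inside it. The log2 fold change was 0.30 ± 0.21 in del/+, 0.17 ± 0.21 in CreERT2/+ and 0.18 ± 0.21 in del/CreERT2 hearts against WT (adjusted p = 0.931, 1.00 and 1.00 by edgeR). The U6 small RNA gene lies within the span of Rara and had 21 counts in all, against 6458 for Rara.

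Rarb (ENSMUSG00000017491, chromosome 14, 17263356 to 17651381), the receptor gene whose promoter is printed above, was at 5.02, 6.23, 4.59 and 5.52 CPM in the WT libraries and at 3.93, 5.08, 7.32 and 5.37 CPM in the del/+ libraries. It was at 5.34, 4.86, 5.42 and 8.04 CPM in the CreERT2/+ libraries and at 3.63, 3.90, 6.53 and 8.16 CPM in the del/CreERT2 libraries. Of the del/CreERT2 libraries, 1 and 2 lay below every WT library and 3 and 4 above every WT library. Their mean of 5.56 ± 2.18 CPM was close to the WT mean of 5.34 ± 0.702 (SD, n = 4), and the log2 fold change was 0.07 ± 0.27 (95% interval -0.48 to 0.62, adjusted p = 1.00 by edgeR). The share of Rarb in the 3 RAR genes, per length, was 23.6% to 49.3% among del/CreERT2 libraries and 32.1% to 46.7% among WT libraries. Across the 16 libraries Rara and Rarb had r = -0.49 (rho = -0.59), given as a description of libraries that share 4 genotypes and their depth differences.

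Rarg (ENSMUSG00000001288, chromosome 15, 102065369 to 102087948), the receptor gamma gene, made up 3.16% ± 1.59 of the RAR genes per length, against 60.5% ± 7.93 for Rara and 36.3% ± 8.35 for Rarb (SD, n = 16). It was at 0.525, 0.643, 0.935 and 0.421 CPM in the WT libraries and at 1.37, 0.320, 0.208 and 0.473 CPM in the del/+ libraries. It was at 0.154, 0.354, 0.482 and 0.820 CPM in the CreERT2/+ libraries and at 1.03, 0.639, 0.481 and 0.922 CPM in the del/CreERT2 libraries. The library del/+ 1 was the highest of all 16 while the other 3 del/+ libraries were in the lower part of the range. In del/+ against WT the log2 fold change was -0.09 ± 0.57 with that library and -0.92 without it (adjusted p = 0.997 and 1.00 by edgeR). With both alleles it was 0.27 ± 0.56 against WT.

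The genes most similar to Rarg across libraries were Afp (r = 0.85, rho = 0.72) and Apob (r = 0.79, rho = 0.70), both abundant in fetal liver, and r was 0.73 and 0.71 without the pair of libraries farthest from the median of the similar gene. The 7 liver and septum transversum markers, led by Afp and Alb, summed to 241 CPM in del/+ 1, 0.386 to 32.6 in WT, 0.660 to 3.35 in the other 3 del/+ libraries, 0.462 to 13.7 in CreERT2/+ and 5.50 to 31.1 in del/CreERT2. Between 0 and 5 of the 7 markers were at 0 in a library. The same library, del/+ 1, held the most Rbp4, the carrier of retinol in blood plasma, at 10.9 CPM against 0.0772 to 2.06 CPM elsewhere. The part of liver RNA in the Rarg values was not tested.

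**Figure D4:**
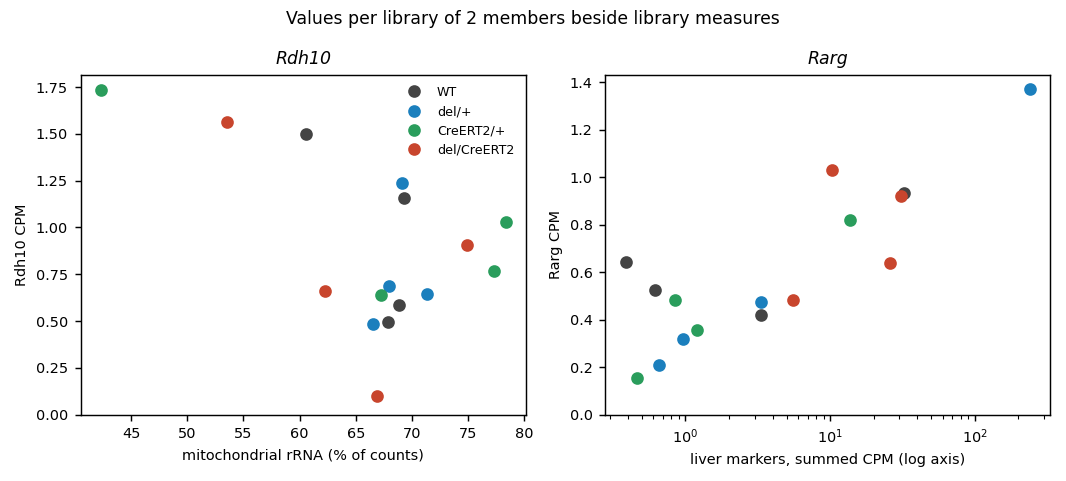
Level of Rdh10 against the share of counts on mitochondrial ribosomal RNA (left) and of Rarg against the summed CPM of 7 liver markers on a log axis (right); each point is one of the 16 libraries, coloured by genotype. The 3 libraries with the lowest ribosomal share have the most Rdh10, at 1.50 to 1.73 CPM, and del/+ 1, with a liver sum of 241 CPM, has the most Rarg.

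Rxra (ENSMUSG00000015846, chromosome 2, 27531960 to 27618477) encodes the alpha form of the shared partner of the RAR proteins. It was at 9.83, 4.63, 10.47 and 7.73 CPM in the WT libraries and at 10.6, 8.12, 7.64 and 8.21 CPM in the del/+ libraries. It was at 9.40, 9.57, 6.67 and 12.7 CPM in the CreERT2/+ libraries and at 10.2, 8.28, 7.12 and 7.64 CPM in the del/CreERT2 libraries. WT 2 was the lowest and CreERT2/+ 4 the highest of the 16, and all del/CreERT2 libraries lay within the WT range. The log2 fold change against WT was 0.02 ± 0.25 in del/CreERT2, 0.08 ± 0.25 in del/+ and 0.23 ± 0.25 in CreERT2/+ hearts (adjusted p = 1.00, 0.987 and 1.00 by edgeR). Per length, Rxra made up 56.7% ± 4.97 of the RXR genes, Rxrb 40.9% ± 5.44 and Rxrg 2.40% ± 1.75 (SD, n = 16). Rxrg, too low to test, had 13 counts in the WT and 33 in the del/CreERT2 libraries, which did not overlap (0.0583 to 0.107 and 0.168 to 0.392 CPM). Of all tested genes, 2.31% lay wholly higher in del/CreERT2 in that way. Single libraries held 2 to 4 counts of Rxrg in WT and 5 to 10 in del/CreERT2, near the limit of 3 counts.

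The order of the genotypes by mean level differed from gene to gene. The mean was highest in CreERT2/+ hearts for Rdh10, Rarb and Rxra, in del/+ for Dhrs3 and Rara, in WT for Crabp1 and Cyp26a1, and in del/CreERT2 for Crabp2 and Rarg. In each of these orders, every genotype overlapped the next. The spread among the 16 libraries, as the SD over the mean, was 18.5% for Rara, 22.02% for Rxra and 24.9% for Rarb, and 49.1% to 59.0% for Rdh10, Dhrs3, Crabp1, Crabp2 and Rarg, the genes with fewer reads. Among pairs of tested members Rara and Rxra were the most alike across libraries (r = 0.67, rho = 0.67, n = 16). Each most similar gene outside the group, here and above, was picked from 6536 genes, and such a search raises r by itself. They were Parvb (r = 0.91) and Arhgef1 (0.90) for Rara, Erlin1 (0.81) and Tspan12 (0.70) for Rarb, and Akt1s1 (0.84) and Bak1 (0.84) for Rxra. For Crabp2 the nearest gene was Ufm1 (r = 0.76) and then Mrps10 (0.74); without 2 libraries farthest from the median of Ufm1 the first became -0.10. For Crabp1 they were Tspan3 (0.63) and Smpd2 (0.62), and for Dhrs3 Rab7 (0.72) and Pes1 (0.71), all 4 at 0.29 to 0.46 without the 2 libraries farthest from the median.

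The genes around the members were read from lists of retinoid synthesis, retinoid uptake and storage, breakdown, other nuclear receptors with the fatty acid and retinoic acid carrier Fabp5, coregulators and retinoic acid-responsive genes. Of 42 such genes tested, edgeR called 0 in either direction in any of the 7 comparisons. Between del/CreERT2 and WT, 9 of the 42 had an unadjusted p under 0.05 (5.67% of all tested genes did). The lists were chosen with earlier results of these data known, so such counts cannot test whether the pathway stands out. In the same comparison DESeq2 called 2 of the 42 and 128 of all genes, and limma-voom called 0. The number of the 42 with an unadjusted p under 0.05 was 4 in del/+ against WT (5.81% of all tested genes). It was 3 in CreERT2/+ against WT (3.71% of all) and 6 in del/CreERT2 against del/+ (5.08%). It was 2 in del/CreERT2 against CreERT2/+ (3.97%), 3 in CreERT2/+ against del/+ (4.18%) and 3 in the interaction (4.34%). The responsive list includes the targeted gene, Tbx5, which was among the 4 in del/+ against WT and the 3 in the interaction. Rbp4, highest in del/+ 1, was among the 4 in del/+ against WT and the 3 in CreERT2/+ against del/+. By list, 7 of 13 synthesis genes were tested, with a median log2 fold change of -0.12 in del/CreERT2 against WT. Tested too were 5 of 10 uptake genes with a median of 0.02 and 1 of 2 breakdown genes at 0.03. The rest were 10 of 11 receptor genes (median -0.17), 10 of 10 coregulators (0.03) and 12 of 19 responsive genes (0.37). The median of all tested genes was -0.0032.

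**Figure D5:**
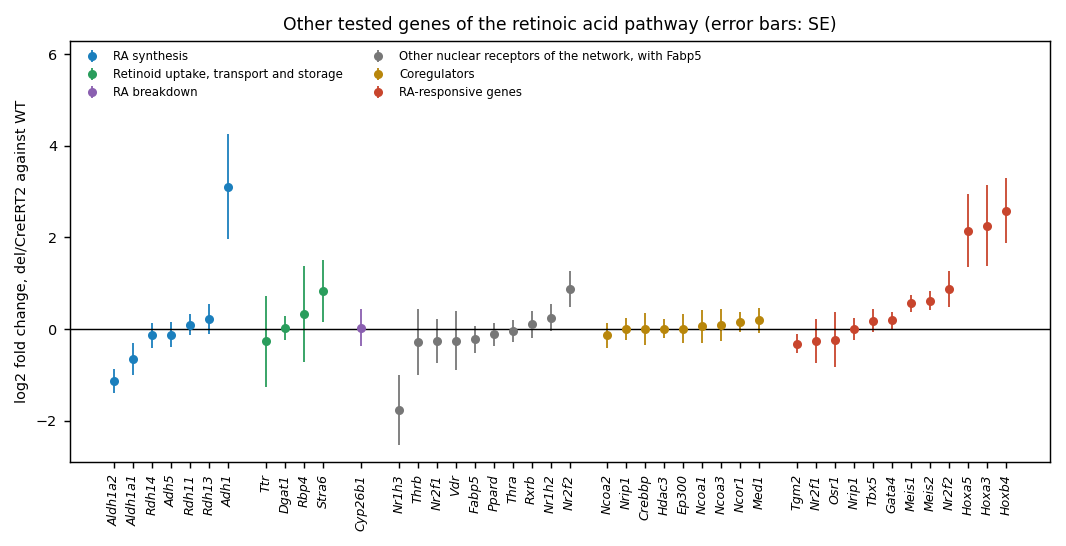
Log2 fold change in del/CreERT2 against WT hearts of other tested retinoic acid pathway genes, by list, with the SE as error bars (edgeR); 2 genes stand in both the receptor and the responsive list and 1 in both the coregulator and the responsive list. The coregulators lie close to 0, and Aldh1a2 is the lowest synthesis gene at -1.14. Hoxb4, with 19 counts in the WT libraries, has the highest value of the responsive genes at 2.59.

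Aldh1a2, the main enzyme that makes retinoic acid in the embryo, had the lowest p of these genes. It was at 6.47, 8.59, 11.5 and 8.34 CPM in the WT libraries and at 4.56, 4.48, 2.61 and 4.27 CPM in the del/CreERT2 libraries. It was at 8.12, 9.32, 4.83 and 4.13 CPM in the del/+ libraries and at 7.81, 7.44, 7.42 and 8.04 CPM in the CreERT2/+ libraries. All del/CreERT2 libraries lay below all WT libraries, as they did for 1.96% of tested genes, and below all CreERT2/+ libraries, as for 1.25%. The log2 fold change in del/CreERT2 against WT was -1.14 ± 0.26 with an adjusted p of 0.0615 by edgeR, short of the threshold. The same value had an adjusted p between 0.00433 and 0.226 over 26 other ways of fitting and was past the threshold in 4 of them, DESeq2 (0.00642), no filter on low counts (0.00433), the ribosomal share as a covariate (0.0197) and without CreERT2/+ 3 (0.0319). The 9 epicardial markers, led by Upk3b and Tcf21, summed to 79.0 to 100.4 CPM in del/CreERT2 and 105.7 to 127 CPM in WT hearts, which did not overlap. They summed to 94.1 to 114 CPM in del/+ hearts, overlapping both, and to 103.7 to 119 CPM in CreERT2/+ hearts, overlapping WT. None of the 9 was at 0 in any library. Of single tested genes, 1.96% lay wholly lower in del/CreERT2 than in WT hearts. Of the other marker lists, only that of neural crest and neurons also separated these genotypes, with higher sums in del/CreERT2. The part of epicardial cells in the Aldh1a2 values was not tested.

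Aldh1a1, another enzyme of the same step, was at 21.7 ± 6.54 CPM in WT and 13.8 ± 0.729 CPM in del/CreERT2 hearts (log2 fold change -0.65 ± 0.35, adjusted p = 0.959 by edgeR). It was at 14.6 ± 8.62 CPM in del/+ and 10.8 ± 4.39 CPM in CreERT2/+ hearts (SD, n = 4), with log2 fold changes of -0.57 ± 0.35 and -1.01 ± 0.35 against WT (adjusted p = 0.916 and 1.00 by edgeR). All 3 genotypes overlapped WT, where library 4 was the lowest at 12.6 CPM, and with no filter on low counts the CreERT2/+ value had an adjusted p of 0.0187. Aldh1a3 had too few counts to test. Of the genes of lowest p in the other lists, the alcohol dehydrogenase Adh1 had 6 counts in WT and 47 in del/CreERT2 libraries, which did not overlap (adjusted p = 0.531 by edgeR). Of all tested genes, 2.31% lay wholly higher in del/CreERT2 than in WT libraries. Stra6, a retinol uptake receptor, was at 0.484 ± 0.214 and 0.869 ± 0.436 CPM in WT and del/CreERT2 hearts (SD, n = 4). The corepressor gene Ncor1 was at 57.7 ± 17.3 CPM in WT and 64.6 ± 12.7 CPM in del/CreERT2 hearts. The nuclear receptor genes Nr1h3, for a sterol sensor, and Nr2f2, for a regulator of atrial and venous identity, had log2 fold changes of -1.77 ± 0.76 and 0.87 ± 0.40 (adjusted p = 0.710 and 0.809 by edgeR). Nr1h3 had 84 counts in the WT and 19 in the del/CreERT2 libraries, with 1 to 9 in single del/CreERT2 libraries. For both genes the del/CreERT2 libraries overlapped WT.

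Among the responsive genes, Hoxb4 and Meis1 had the lowest p in del/CreERT2 against WT. Meis1, a homeobox gene that works with Hox proteins, was at 26.7, 26.9, 22.7 and 35.2 CPM in the WT libraries and at 39.3, 41.1, 43.5 and 40.3 CPM in the del/CreERT2 libraries. All del/CreERT2 libraries lay above all WT libraries, as they did for 2.31% of tested genes, and the log2 fold change was 0.56 ± 0.18 with an adjusted p of 0.336 by edgeR. Hoxb4 was at 0.0875, 0.206, 0.160 and 0.0526 CPM in the WT libraries and at 0.147, 1.51, 0.447 and 1.00 CPM in the del/CreERT2 libraries, which overlapped, with a log2 fold change of 2.59 ± 0.71 and an adjusted p of 0.174. As counts, Hoxb4 had 3, 8, 6 and 2 in the WT libraries, near the limit of 3 counts, and 3, 45, 26 and 38 in del/CreERT2. In the del/+ libraries Hoxb4 was at 0.312 to 0.645 CPM, above all WT libraries, as were 2.18% of tested genes. The Hoxb4 value passed the threshold in 2 of 24 other fits, with DESeq2 (adjusted p = 0.0286) and without a filter on low counts (0.0497), and the Meis1 value in 0 of 26. Meis2, named after its values were seen, was at 0.62 ± 0.20 (adjusted p = 0.358) and passed in 1 of 26, without the 3 libraries low in ribosomal share (0.0212).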

How the data were processed

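Heart RNA was isolated using Qiazol and miRNeasy columns and amplified with an Ovation kit, per the labels' protocols. TopHat2, featureCounts and edgeR were used with build mm9, per the submitters' processing notes; versions and strand setting were not stated there, so reads of overlapping or antisense genes cannot be told apart. The authors deposited read counts per gene, which are recorded here under the expected count unit but are all whole numbers and were not rounded. The authors' deposited table also gives log2 fold changes and p-values for each pair of genotypes, used where named; its other 52 columns of per-sample values were left out. Gene positions are those of the table, in mm9; promoter sequences and their coordinates are RefSeq's on GRCm38.p6.

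Genes with low counts were removed with edgeR's default filter (14612 remained), libraries were scaled by TMM, and edgeR's quasi-likelihood fit, with a mean for each genotype (edgeR 4.0.16, limma 3.58.1, R 4.3.3; 12 residual degrees of freedom) took in all 16 libraries. The 7 comparisons were the 6 pairs of genotypes and the interaction, with p-values adjusted over all tested genes at a threshold of 0.05. CPM values use the same scaled library sizes. Exact two-sided permutation tests used log2(CPM + 1). DESeq2 1.42.0, limma-voom and other filters, scalings, samples and covariates were alternatives. The scripts were tested on simulated data. Libraries were compared for duplicates, and none agreed within sampling noise (smallest chi-square per degree of freedom 22.9). Intervals and limits cover counting error and the spread between libraries only. The members and the lists of pathway and marker genes were chosen with earlier results of these data known. Named were all members, the main enzymes, carriers and receptors of the pathway, the 2 genes of lowest p in del/CreERT2 against WT in each list, the 2 most abundant markers of a list, and, for each tested member, the 2 genes of at least 5 mean CPM with the highest correlation across libraries; other genes are said to be chosen after their values were seen. Of the genes this rule names, 2 are counted in their lists but are not reported or drawn here.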

Additional observations from a re-analysis of the deposited data

Results flagged for a closer look

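Of 36 sets of 4 libraries (9 members in 4 genotypes), 4 met the rule for a single library apart from the other 3, which flags about 1 in 20 sets by chance where values are not tied at 0. Crabp2 in del/CreERT2 4 was at 2.475 CPM, with the next library of that genotype at 0.8749. Cyp26a1 was at 0.07623 CPM in del/+ 1, 0.03855 CPM in CreERT2/+ 3 and 0.0172 CPM in del/CreERT2 3, while the other 3 libraries of each genotype were at 0. These values stand for 2, 2 and 1 counts, under the limit of 3 counts that a count of 0 allows; with the other 3 at 0 any count meets the rule, so these 3 flags say nothing about the genotypes.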

How the results depend on the processing

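No tested member was called in any of 26 alternative fits: of 1413 member values, 1334 kept their direction, 79 turned sign and 0 passed the threshold (lowest adjusted p 0.378). The fits with no filter and with a mean of at least 5 CPM tested different sets of genes from the fit of the report. Their counts of genes called therefore rest on other numbers of tested genes, and no shares are given. A change in such a count alone does not show that calls on the same genes changed. Counts over all genes differed more from fit to fit than the member calls did. They were 49 in del/CreERT2 against WT, 17 in del/+ against WT, 5 in CreERT2/+ against WT, 3 in del/CreERT2 against del/+, 11 in del/CreERT2 against CreERT2/+, 0 in CreERT2/+ against del/+ and 6 in the interaction in the fit of the report; with DESeq2 it was 128 in del/CreERT2 against WT, 47 in del/+ against WT, 21 in CreERT2/+ against WT, 22 in del/CreERT2 against del/+, 42 in del/CreERT2 against CreERT2/+ and 17 in the interaction; with no filter it was 189 in del/CreERT2 against WT, 120 in del/+ against WT, 73 in CreERT2/+ against WT, 65 in del/CreERT2 against del/+, 92 in del/CreERT2 against CreERT2/+, 36 in CreERT2/+ against del/+ and 73 in the interaction; with a mean of at least 5 CPM it was 13 in del/CreERT2 against WT, 10 in del/+ against WT and 5 in del/CreERT2 against CreERT2/+. Without the 3 libraries low in ribosomal share it was 95 in del/CreERT2 against WT, 43 in del/+ against WT, 33 in CreERT2/+ against WT, 16 in del/CreERT2 against del/+ and 24 in the interaction; with that share as a covariate it was 129 in del/CreERT2 against WT, 43 in del/+ against WT, 21 in CreERT2/+ against WT, 6 in del/CreERT2 against del/+, 27 in del/CreERT2 against CreERT2/+ and 15 in the interaction; with only the genotypes compared in the fit it was 37 in del/+ against WT, 13 in del/CreERT2 against del/+ and 2 in del/CreERT2 against CreERT2/+. The interaction could not be fitted with only 2 genotypes. Leaving out 1 library gave counts of 24 to 99 in del/CreERT2 against WT, 13 to 38 in del/+ against WT, 3 to 34 in CreERT2/+ against WT, 2 to 6 in del/CreERT2 against del/+, 3 to 21 in del/CreERT2 against CreERT2/+ and 4 to 24 in the interaction, and 0 throughout in CreERT2/+ against del/+. Pathway genes called, counted after seeing the data, were with no filter 3 in del/CreERT2 against WT, 1 in del/+ against WT, 1 in CreERT2/+ against WT, 2 in del/CreERT2 against del/+ and 2 in CreERT2/+ against del/+. Of the 3 in del/CreERT2 against WT, Bcmo1 had too few counts to be tested in the fit of the report. For del/CreERT2 against WT the number of pathway genes called was 2 with DESeq2, 1 without the 3 libraries, 1 with the covariate, and 0 to 1 with 1 library left out. Same-numbered libraries correlated at -0.50 to 0.65, above 0.1 in 7 of 24 pairs. Differently numbered libraries correlated at -0.54 to 0.66, above 0.1 in 22 of 72 pairs. By this measure replicate numbers showed no pairing of the libraries, but it cannot settle whether there was one. With the replicate number as a block, 41 genes were called in del/CreERT2 against WT, 20 in del/+ against WT, 5 in CreERT2/+ against WT, 3 in del/CreERT2 against del/+, 11 in del/CreERT2 against CreERT2/+, 0 in CreERT2/+ against del/+ and 6 in the interaction, and log2 fold changes that turned sign were Rarb -0.010 in del/CreERT2 against WT, Rarb -0.0099 in del/+ against WT, Crabp2 -0.019 in CreERT2/+ against WT, Rdh10 -0.058 in del/CreERT2 against del/+, Rarb -0.00049 in del/CreERT2 against del/+ and Rara -0.0056 in del/CreERT2 against CreERT2/+. Signs also turned with limma-voom (Dhrs3 -0.052 in del/CreERT2 against WT and Rara -0.017 in del/CreERT2 against CreERT2/+), with the filter at 5 CPM (Rara -0.020 in del/CreERT2 against CreERT2/+), without the 3 libraries (Dhrs3 -0.022 in del/CreERT2 against WT, Rdh10 0.021 in del/+ against WT, Crabp2 -0.11 in CreERT2/+ against WT, Rdh10 -0.41 in del/CreERT2 against del/+, Rarb -0.033 in del/CreERT2 against del/+ and Rxra 0.013 in del/CreERT2 against del/+) and with the covariate (Rdh10 -0.094 in del/CreERT2 against del/+ and Rxra 0.016 in del/CreERT2 against del/+). Differences of mean log2(CPM + 1) were compared with main values on that same scale. In del/CreERT2 against WT these main values were -0.024 for Dhrs3 and -0.0044 for Rarb, opposite in sign to edgeR's 0.08 and 0.07. On the log2(CPM + 1) scale signs turned without TMM factors (Dhrs3 0.035 in del/CreERT2 against WT, Rarb 0.039 in del/CreERT2 against WT, Rarb -0.13 in del/+ against WT and Rxra -0.024 in del/+ against WT). They also turned with a pseudocount of 0.1 (Rarb -0.0029 in del/+ against WT). Log2 fold changes that turned sign when 1 library was left out had these ranges. The comparison of del/CreERT2 with WT gave Rdh10 -0.74 to 0.17, Dhrs3 -0.43 to 0.38, Crabp1 -0.67 to 0.18, Rarb -0.18 to 0.22 and Rxra -0.17 to 0.16. The comparison of del/+ with WT gave Rdh10 -0.63 to 0.024, Rarb -0.16 to 0.15, Rarg -0.92 to 0.20 and Rxra -0.11 to 0.23. The comparison of CreERT2/+ with WT gave Rdh10 -0.20 to 0.49, Crabp1 -0.79 to 0.040, Crabp2 -0.19 to 0.37 and Rarb -0.040 to 0.22. The comparison of del/CreERT2 with del/+ gave Rdh10 -0.42 to 0.46, Crabp2 -0.25 to 0.73, Rarb -0.20 to 0.22 and Rxra -0.17 to 0.051. The comparison of del/CreERT2 with CreERT2/+ gave Rdh10 -0.90 to 0.037, Dhrs3 -0.70 to 0.11, Crabp1 -0.15 to 0.35, Rara -0.13 to 0.12 and Rarb -0.32 to 0.10. The comparison of CreERT2/+ with del/+ gave Rarb -0.064 to 0.30, Rarg -0.78 to 0.44 and Rxra -0.023 to 0.28. The interaction gave Rdh10 -0.59 to 0.31, Crabp2 -0.30 to 0.69 and Rarb -0.34 to 0.080. The causes were not tested. Members under a mean of 5 CPM have no value under that filter. Other scaling moved the median of all genes by at most 0.035 on the log2 scale. The intervals of the 5 tested members with few reads reach past 1 on the log2 scale, and Cyp26a1 had too few counts to test.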
